A study of Mus musculus with 15 samples.

Results

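E2F factors are the transcription factors that time entry into S phase, and the retinoblastoma proteins, also called pocket proteins, are the partners that hold them in check. The 10 genes described here are E2f1 to E2f8, Rb1 and Rbl1. They were found in the count table by matching its Ensembl mouse identifiers to these symbols, and they are 10 of its 55416 identifiers. Every one of the 10 passed the filter on low counts, as did 18244 genes in all.

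RNA was sequenced from hippocampal neural precursor cells of 6-week-old female mice, kept as adherent cultures and carried as 3 stable lines. Each line held a piggyBac insertion with a TRE3G promoter, a Tet-ON-3G transactivator driven by SV40, and a puromycin gene. Under TRE3G lay the coding sequence of Atf3 in the Atf3 line (Overexpression-Atf3), that of Atf4 in the Atf4 line (Overexpression-Atf4), and neither in the control line (Overexpression-control). All 3 lines were switched to differentiation by withdrawing EGF and FGF, all received doxycycline at 100 ng/ml from that moment, and all were harvested 10 h later, with 5 libraries per line. ATF3 and ATF4 are basic leucine zipper factors known from the cellular stress response. The question is what each of them does to transcription when its level is raised in precursor cells that have just left growth medium. There is 1 line per construct, so the effect of the insert and any other difference between the lines cannot be told apart. The labels do not say whether the 5 libraries of a line are separate cultures. The p-values therefore cover only the spread among the libraries, which may be technical.

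Library totals ran from 53.7 to 69.6 M counts. Atf3 transcripts stood at 1941 ± 119.5 CPM (counts relative to the library total, scaled by TMM; SD, n = 5) in the Atf3 line, 5.02 ± 4.1 in the control line and 1.4 ± 0.306 in the Atf4 line. Atf4 transcripts stood at 153 ± 21.7 CPM in Atf4 libraries, 250.3 ± 16.5 in Atf3 libraries and 83.2 ± 6.75 in control libraries, so the line carrying the Atf4 insert was not the line with most Atf4 reads. These counts do not separate the insert from the cell's own gene. On the first principal component, which held 63% of the variance, control libraries lay between -63.7 and -55.3 and Atf3 libraries between 41.7 and 54. Atf4 replicate 5 lay at 27.1, beyond the 1.11 to 14.3 of the other Atf4 libraries, and results that lean on it are given without it below. All 6 precursor markers (Nes, Sox2, Vim, Pax6, Fabp7, Hes1) were above 1 CPM in each line, with a summed level of 3039.6 to 3294 CPM in control, 3657 to 3763 in Atf3 and 3331 to 3428 in Atf4 libraries. The 5 neuron markers summed to 85.8 to 90.5 CPM in control, 17.5 to 21.9 in Atf3 and 35 to 55.5 in Atf4 libraries, with Rbfox3 and Snap25 under 1 CPM in control and Atf3 libraries. The 5 oligodendrocyte markers summed to 1368 to 1605, 1098 to 1407 and 1093 to 1259.9 CPM in the same order, with Mbp and Mog under 1 CPM throughout. The 4 astrocyte markers summed to 223 to 261, 102 to 114 and 97.1 to 134 CPM, with Aqp4 under 1 CPM throughout. The 4 endothelial markers summed to 42.6 to 47.2, 8.36 to 11.9 and 15.1 to 19 CPM, with Pecam1, Cdh5 and Cldn5 under 1 CPM, and Cldn5 at 0 in every Atf3 library. The 4 ependymal markers summed to 21.2 to 25.2, 30.9 to 41.1 and 29.5 to 38.3 CPM, all but Foxj1 under 1 CPM. The 5 microglia markers reached at most 1.43 CPM summed, and the 5 mural and fibroblast markers at most 0.899 CPM. The part of these marker differences in the results below was not tested.

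In the usual account, E2F1, E2F2 and E2F3 are activators: bound by RB1 they are silent, and once cyclin-dependent kinases phosphorylate RB1 they switch on the genes of DNA replication. E2F4 and E2F5 act mostly as repressors with the pocket proteins RBL1 (p107) and RBL2 (p130), as parts of the DREAM complex that shuts cell cycle genes in resting cells. E2F6 represses without any pocket protein, through a Polycomb complex. E2F7 and E2F8 are atypical repressors that bind DNA without a dimerization partner of the TFDP family and dampen E2F targets later in the cycle. E2F1, E2F2, E2F7, E2F8 and RBL1 are themselves E2F targets, and the same switch operates when neural precursors leave or re-enter the cycle.

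Promoters of the members are described first, because E2F genes that are themselves E2F targets are known to be bound near their start. Stretches are printed only where E2F letters were found, whatever the size of the gene's change. RefSeq promoter windows on GRCm38.p6, each 300 bases long and reaching from 250 before to 50 after a start, matched 7 of the 10 members (not E2f4, E2f5 or Rb1). They were searched on both strands for the E2F letters TTTCCCGC, TTTGGCGC, TTTCGCGC and TTTGCCGC, which share their first 3 bases. None of them contains another word searched here, although a word on one strand can overlap one on the other. One of these words was present in 4 of the 7 members, against 2.6% of the 27025 genes with a window (2.26% of 32851 windows). The stretches around them follow, 5′ to 3′ on the gene's strand, with the E2F letters, or their reverse complement, in capitals.
E2f2 (chr4:136172294-136172323, plus strand): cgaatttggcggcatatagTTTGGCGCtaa
E2f3 (chr13:29986047-29986114, minus strand): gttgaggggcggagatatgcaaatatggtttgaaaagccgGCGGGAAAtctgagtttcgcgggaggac
E2f7 (chr10:110745201-110745268, plus strand): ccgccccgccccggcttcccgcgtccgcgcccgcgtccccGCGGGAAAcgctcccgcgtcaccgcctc
Rbl1 (chr2:157204525-157204592, minus strand): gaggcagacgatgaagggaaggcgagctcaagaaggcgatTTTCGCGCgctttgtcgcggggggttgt
Counted from the start as base 1, the letters began at base 40 in E2f2, at base -11 in E2f3, at base -198 in E2f7 and at base -18 in Rbl1. In E2f3 and E2f7 they read TTTCCCGC on the opposite strand. The CHR word TTTGAA, a site of DREAM and MuvB found in late cell cycle genes, was present in 3 of the 7 members (E2f2, in the second of its windows, E2f3 and E2f8) and in 20.2% of all genes with a window. Words known for ATF and AP-1 factors were searched as well: TGACGTCA (2.03% of genes), TGANTCA (8.97%) and TGATGNAA (4.51%), of which none occurred in the windows of the 7 members. No searched word was in the windows of E2f1 and E2f6. The E2f1 window (chr2:154569377-154569676, minus strand) lies wholly inside the gene, whose annotated start is at base 154569892. The bases before that start were not searched. A match here is a string of letters and not a measured site, and its lack says only that the letters are not in that window.

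**Figure D1:**
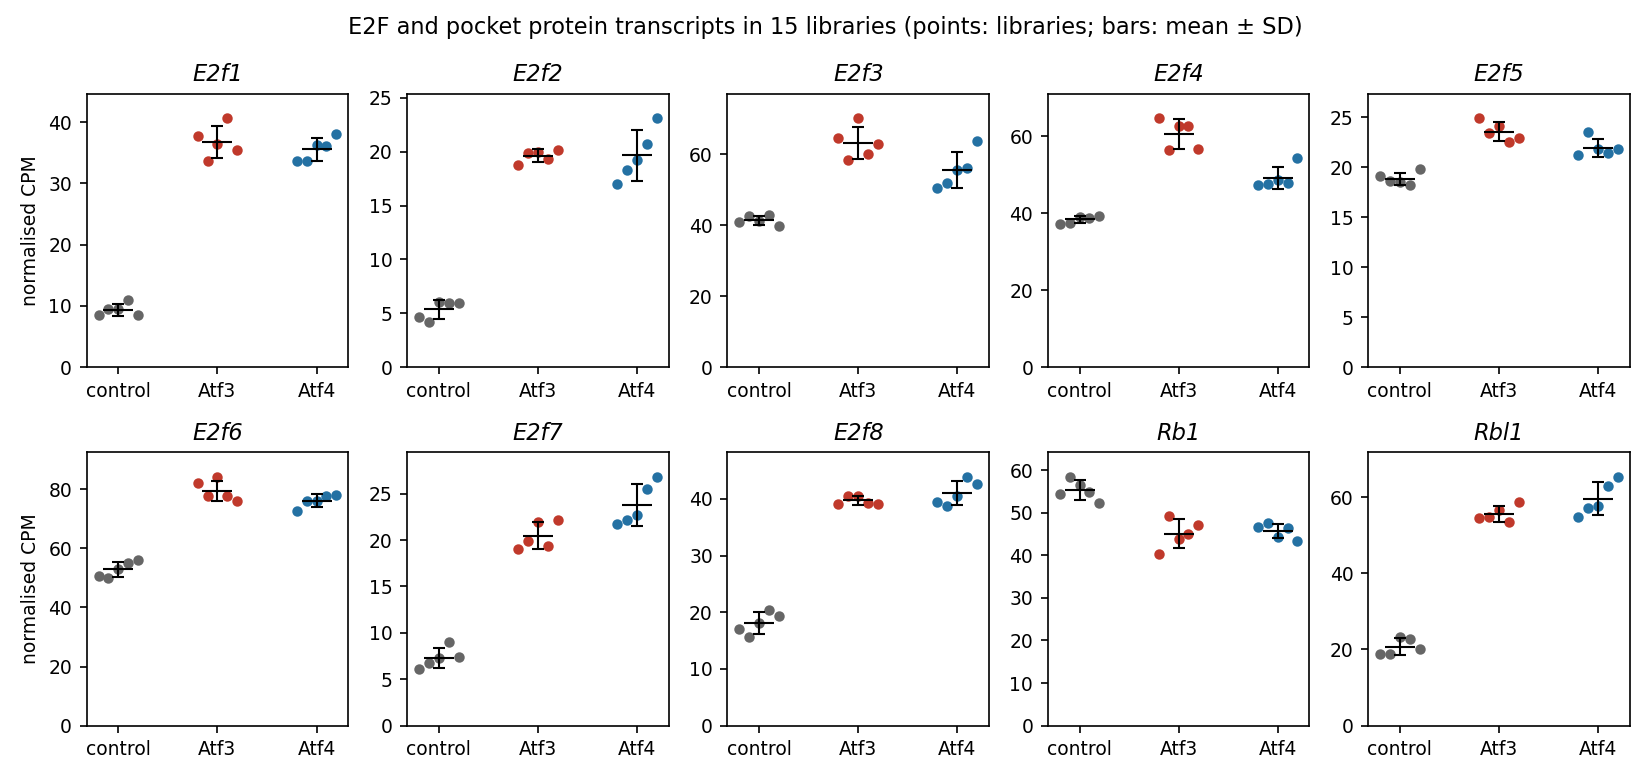
TMM-scaled CPM of each of the 10 genes in the 15 libraries, with points for libraries in replicate order from left to right and bars for the mean ± SD of 5. The control libraries lie apart from all Atf3 and Atf4 libraries in each panel, below them for 9 genes and above them for Rb1, while the Atf3 and Atf4 libraries overlap for every gene but E2f4.

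Against the control line, 9 of the 10 genes rose and 1, Rb1, fell in the Atf3 line, and the same split of 9 and 1 held in the Atf4 line. The increases were largest for E2f1 (3.91-fold and 3.78-fold), E2f2 (3.65-fold in each), E2f7 (2.8-fold and 3.25-fold), Rbl1 (2.68-fold and 2.87-fold) and E2f8 (2.19-fold and 2.27-fold), while E2f3, E2f4, E2f5 and E2f6 rose by between 1.17-fold and 1.58-fold. Calls are those with an adjusted p under 0.05 in edgeR's quasi-likelihood test. Over all genes tested, 73.2% were called in the Atf3 line (36.8% higher and 36.3% lower) and 61.6% in the Atf4 line (31.9% higher and 29.7% lower). Calls at least 2-fold higher, which 5 of the 10 genes made in each line, came to 7.12% of all genes for the Atf3 line and 4.19% for the Atf4 line. The median log2 fold change of the 10 genes was 0.90 for the Atf3 line and 0.85 for the Atf4 line, beside -0.0175 and -0.000849 over all genes. For none of the 10 did a library of either line overlap the control libraries, with 9 above and 1 below, whereas 32% of all genes lay wholly above and 28.7% wholly below in the Atf3 line, and 26.1% and 21.8% in the Atf4 line. Both comparisons use the same 5 control libraries, so they are not independent of each other. In bulk RNA a change in the number of cells in a cycle phase and a change in RNA per cell cannot be told apart. Scaling by plain library totals in place of TMM shifted the median of all genes by -0.14 on the log2 scale in the Atf3 line and turned its split of calls from 6721 higher and 6630 lower to 5214 higher and 8358 lower, but all 20 calls on the 10 genes kept their direction.

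Among the activators, E2f1 (ENSMUSG00000027490, chr2:154559407-154569892, minus strand, GRCm38), the E2F most closely tied to S-phase entry and to apoptosis, moved most. Control replicates 1 to 5 gave 8.59, 9.54, 9.45, 10.9 and 8.47 CPM of E2f1, Atf3 replicates 37.7, 33.7, 36.4, 40.6 and 35.5, and Atf4 replicates 33.7, 33.7, 36.2, 36.1 and 38. The highest control library, replicate 4, was far under the lowest of either other line, and the Atf3 and Atf4 libraries overlapped. Its log2 fold change was 1.97 ± 0.07 (SE) in the Atf3 line (edgeR adjusted p = 4.5e-14) and 1.92 ± 0.07 in the Atf4 line (edgeR adjusted p = 1.5e-13). These placed E2f1 at the 98.6 and 99.2 percentiles of all genes tested in the respective comparisons. The genes whose profile over the 15 libraries lay closest to that of E2f1, out of 11760 searched, were Mcm6, Rad51ap1 and Cdc45, with root mean square differences of 0.094, 0.1 and 0.11 on the log2 scale after centring each gene.

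E2f2 (ENSMUSG00000018983, chr4:136172394-136196057, plus strand) is another activator. Its 5 control libraries held 4.66, 4.24, 6.01, 5.92 and 5.99 CPM, its Atf3 libraries 18.8, 19.9, 20.01, 19.3 and 20.2, and its Atf4 libraries 17, 18.3, 19.2, 20.7 and 23.1. The Atf3 libraries were tightly grouped, and the Atf4 libraries straddled them. The log2 fold change was 1.87 ± 0.09 in each line, with edgeR adjusted p = 3.3e-12 for Atf3 and 9.3e-12 for Atf4. E2f3 (ENSMUSG00000016477, chr13:29906575-29986063, minus strand), which encodes both an activating and a shorter isoform that these gene counts do not separate, rose 1.52-fold and 1.34-fold. It stood at 40.9, 42.5, 41.3, 42.8 and 39.7 CPM in control libraries, 64.5, 58.4, 70.1, 60.2 and 62.9 in Atf3 libraries, and 50.5, 51.8, 55.5, 56.2 and 63.8 in Atf4 libraries. Only Atf4 replicate 5 reached into the Atf3 range. The log2 fold change was 0.61 ± 0.06 in the Atf3 line (edgeR adjusted p = 2e-08) and 0.42 ± 0.06 in the Atf4 line (edgeR adjusted p = 4.3e-06).

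Among the repressors that work with pocket proteins, E2f4 (ENSMUSG00000014859, chr8:105297663-105305370, plus strand), the main E2F of resting cells, had 37.3, 37.5, 39.1, 38.7 and 39.3 CPM in control libraries, 64.6, 56.4, 62.7, 62.7 and 56.6 in Atf3 libraries, and 47.4, 47.5, 48.7, 47.7 and 54.2 in Atf4 libraries. The 3 lines formed 3 separate levels with no overlap, and Atf4 replicate 5 stood above the other Atf4 libraries. The rise was 1.58-fold in the Atf3 line (log2 fold change 0.66 ± 0.05, edgeR adjusted p = 3.2e-10) and 1.28-fold in the Atf4 line (0.36 ± 0.05, edgeR adjusted p = 2.5e-06). E2f5 (ENSMUSG00000027552, chr3:14578641-14606309, plus strand), its close relative, made the smallest rise of the 9, from 18.2 to 19.8 CPM over control libraries to 22.5 to 24.9 in Atf3 and 21.2 to 23.5 in Atf4 libraries. That is a log2 fold change of 0.32 ± 0.04 in the Atf3 line (edgeR adjusted p = 1.4e-06) and 0.22 ± 0.04 in the Atf4 line (edgeR adjusted p = 0.00017). It shares 1.46% of its exon bases with 1810022K09Rik, which was at 49.99 ± 2.6 CPM in control, 76.3 ± 3.07 in Atf3 and 54.9 ± 2.13 in Atf4 libraries, and the library kit does not mark strand. E2f6 (ENSMUSG00000057469, chr12:16810963-16839742, plus strand), the Polycomb-linked repressor, went from 49.8 to 56 CPM over control libraries to 75.9 to 84.1 in Atf3 and 72.5 to 78 in Atf4 libraries. Its rise was 1.5-fold (log2 fold change 0.59 ± 0.04, edgeR adjusted p = 1.6e-10) and 1.44-fold (0.53 ± 0.04, edgeR adjusted p = 1.9e-09).

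The atypical repressors rose between 2.19-fold and 3.25-fold. E2f7 (ENSMUSG00000020185, chr10:110745439-110787384, plus strand) had 6.09, 6.75, 7.28, 8.98 and 7.41 CPM in control libraries, 19, 19.9, 21.9, 19.4 and 22.2 in Atf3 libraries, and 21.7, 22.2, 22.7, 25.5 and 26.8 in Atf4 libraries. Most Atf4 libraries lay at or above the top of the Atf3 range, with replicates 4 and 5 highest. The log2 fold change was 1.49 ± 0.09 in the Atf3 line (edgeR adjusted p = 2.6e-11) and 1.70 ± 0.09 in the Atf4 line (edgeR adjusted p = 1.3e-11). E2f8 (ENSMUSG00000046179, chr7:48866429-48881596, minus strand), which forms dimers with E2F7, had 17, 15.6, 18.2, 20.4 and 19.3 CPM in control libraries, 39.2, 40.6, 40.6, 39.3 and 39.1 in Atf3 libraries, and 39.5, 38.8, 40.5, 43.9 and 42.6 in Atf4 libraries. The Atf3 libraries spanned the narrowest range, with a coefficient of variation of 1.96%. The log2 fold change was 1.13 ± 0.06 in the Atf3 line (edgeR adjusted p = 3.9e-12) and 1.18 ± 0.06 in the Atf4 line (edgeR adjusted p = 6.6e-12). Of the exon bases of E2f8, 11.2% are shared with Gm2788, which was at 0.417 to 0.596 CPM on average in the 3 lines. Rfc5, Fanci and Nsl1 had the profiles nearest to E2f8, with root mean square log2 differences of 0.052, 0.054 and 0.069.

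The 2 pocket protein genes moved in opposite directions. Rbl1 (ENSMUSG00000027641, chr2:157145893-157204534, minus strand), which encodes p107, had 18.9, 18.7, 23.3, 22.8 and 20.05 CPM in control libraries, 54.4, 54.9, 56.6, 53.5 and 58.6 in Atf3 libraries, and 54.8, 57.2, 57.7, 62.9 and 65.3 in Atf4 libraries. No control library exceeded 23.3 CPM and no other library was under 53.5, and Atf4 replicates 4 and 5 were above every Atf3 library. The log2 fold change was 1.42 ± 0.06 in the Atf3 line (edgeR adjusted p = 6.9e-13) and 1.52 ± 0.06 in the Atf4 line (edgeR adjusted p = 9.9e-13). Rb1 (ENSMUSG00000022105, chr14:73183673-73325822, minus strand), the retinoblastoma gene itself and the main brake on the activators, had 54.3, 58.4, 56.6, 54.9 and 52.2 CPM in control libraries, 40.2, 49.3, 43.8, 44.9 and 47 in Atf3 libraries, and 46.6, 47.6, 44.4, 46.5 and 43.4 in Atf4 libraries. Every control library lay above every other library, though the gap was small, from 49.3 in Atf3 replicate 2 to 52.2 in control replicate 5. Rb1 was 1.23-fold lower in the Atf3 line (log2 fold change -0.30 ± 0.05, edgeR adjusted p = 2.4e-05) and 1.21-fold lower in the Atf4 line (-0.27 ± 0.05, edgeR adjusted p = 7.9e-05). These values sat at the 33.2 and 26.8 percentiles of all genes, so many genes fell further. Rb1 shares 14.9% of its exon bases with Lpar6 and Rcbtb2. Lpar6 was at 16.3 ± 3.27, 18.5 ± 2.13 and 9.93 ± 0.696 CPM and Rcbtb2 at 55.2 ± 2.35, 59.7 ± 1.44 and 56.8 ± 2.08 CPM in control, Atf3 and Atf4 libraries, and without strand the reads of shared bases cannot be assigned. Scaper, Clcn6 and Tef had the profiles nearest to Rb1, at 0.049, 0.05 and 0.053.

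**Figure D2:**
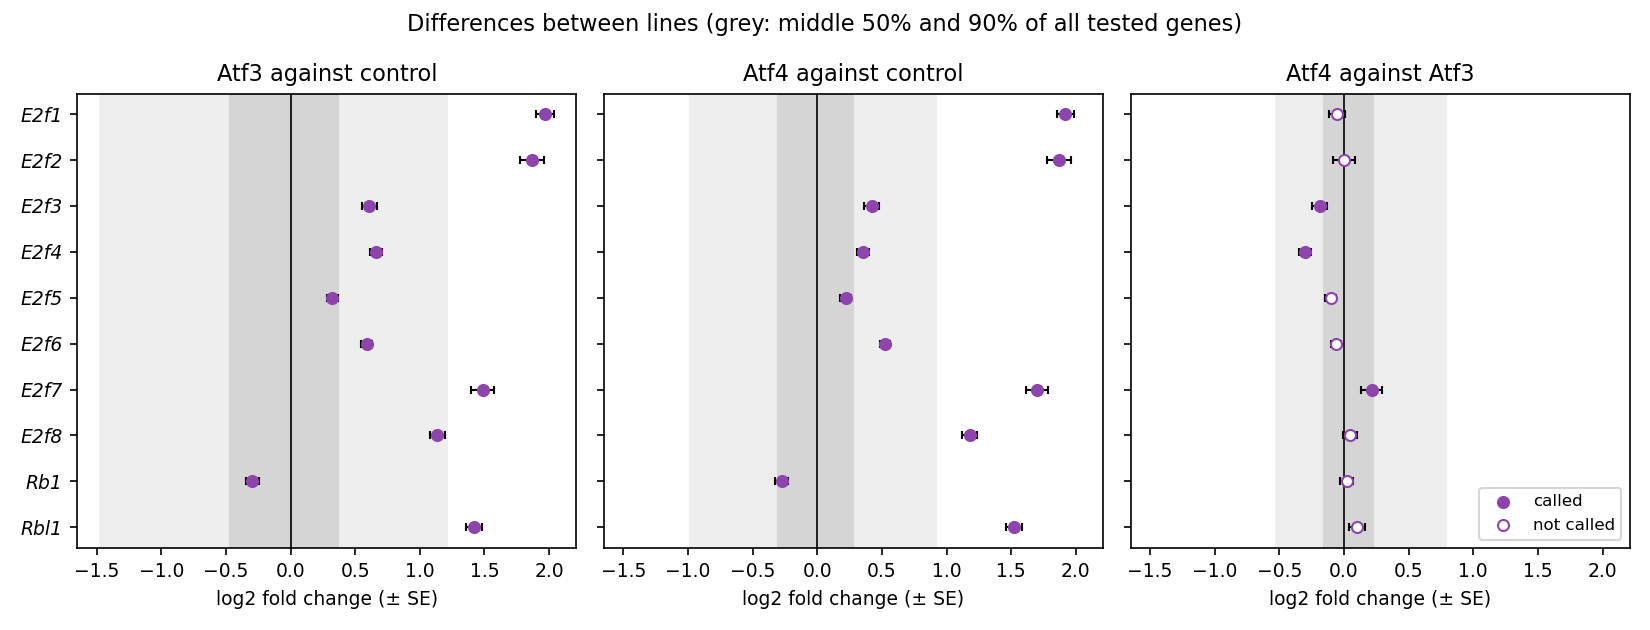
Log2 fold change ± SE of the 10 genes in the 3 comparisons, with filled points for genes called and open points for the rest. Grey bands hold the middle 50% and 90% of all 18244 genes tested. Against control E2f1, E2f2, E2f7 and Rbl1 lie beyond the wider band in both panels and E2f8 in the Atf4 panel, while Rb1 lies inside the narrower band on the negative side. In the right panel, where E2f1, E2f5 and E2f6 change sign with plain library totals, the 10 genes lie between -0.30 and 0.21.

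Set directly against each other, the Atf4 and Atf3 lines differed in 3 of the 10 genes, 1 higher and 2 lower in the Atf4 line, beside 43.6% of all genes, 19.7% higher and 23.9% lower. E2f4 was lower in the Atf4 line by 1.23-fold (log2 fold change -0.30 ± 0.05, edgeR adjusted p = 4.5e-05), and it was the only one of the 10 whose Atf4 and Atf3 libraries did not overlap, as 16.3% of all genes did not on that side and 9.52% on the other. E2f3 was lower by 1.14-fold (-0.19 ± 0.06, edgeR adjusted p = 0.014), a call lost with plain library totals (-0.09, edgeR adjusted p = 0.23). E2f7 was higher by 1.16-fold (0.21 ± 0.08, edgeR adjusted p = 0.042). That call was lost without control replicate 5 (edgeR adjusted p = 0.0502), Atf3 replicate 1, 2 or 4 (0.103, 0.0797 and 0.0911) or Atf4 replicate 4 or 5 (0.0903 and 0.087). For the other 7 genes the log2 fold change between the Atf4 and Atf3 lines was 0.10 ± 0.06 for Rbl1, 0.05 ± 0.06 for E2f8, 0.02 ± 0.05 for Rb1, 0 ± 0.09 for E2f2, -0.05 ± 0.06 for E2f1, -0.06 ± 0.04 for E2f6 and -0.10 ± 0.04 for E2f5, and none passed the test in edgeR. E2f5 passed it without Atf3 replicate 4 (edgeR adjusted p = 0.0359) or Atf4 replicate 2 (0.0271). With plain library totals, which move the median of all genes by 0.10 here and turn 3595 higher and 4363 lower calls into 6196 and 2369, the values of E2f1, E2f5 and E2f6 became positive and E2f8 and Rbl1 were called higher (edgeR adjusted p = 0.037 and 0.0121).

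Within the Atf4 line the libraries were spread in the same way for most of the genes. Replicate 5, the one nearest to the Atf3 libraries on the first principal component, was the highest Atf4 library for 7 genes (E2f1, E2f2, E2f3, E2f4, E2f6, E2f7 and Rbl1) and the lowest for Rb1. Replicate 1, which lay farthest from the Atf3 libraries at 1.11, was the lowest for 7 genes (E2f2 to E2f7 and Rbl1). Without replicate 5 all 10 genes were still called against control in the same directions, with log2 fold changes of 1.88 for E2f1, 1.79 for E2f2, 0.35 for E2f3, 0.30 for E2f4, 1.64 for E2f7, 1.47 for Rbl1 and -0.27 for Rb1. Against the Atf3 line without it, E2f4 stood at -0.34 and E2f3 at -0.24, both called lower. How many of all genes share this order of libraries was not counted, so it is not shown to be particular to the 10 genes. What sets replicate 5 apart was not tested.

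**Figure D3:**
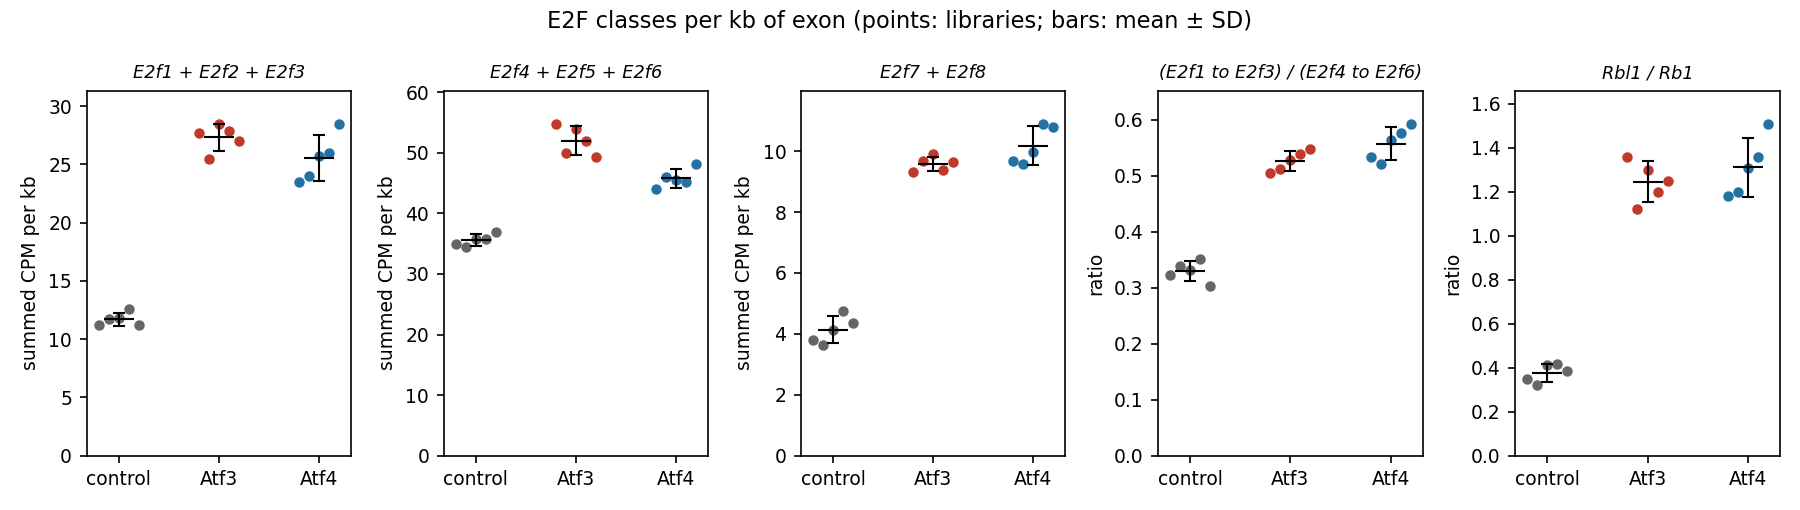
Summed level per kb of exon for activators, repressors and atypical E2Fs, and 2 ratios of such levels, in the 15 libraries with bars for the mean ± SD of 5. The ratio of activators to repressors is 0.303 to 0.352 in control libraries and 0.505 to 0.593 in the others, and the ratio of Rbl1 to Rb1 goes from at most 0.417 to at least 1.12.

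To set genes side by side, CPM was divided by the kb of each gene's merged exons. In the control line E2f4 was the most abundant at 15.7 CPM per kb, followed by E2f5 at 10.6, E2f6 at 9.33, Rb1 at 9.19, E2f3 at 7.64, Rbl1 at 3.46, E2f8 at 3.33, E2f1 at 2.98, E2f2 at 1.1 and E2f7 at 0.81. Ranges of libraries overlapped between E2f6 and Rb1, Rbl1 and E2f8, E2f8 and E2f1, and E2f2 and E2f7. Both genes of a pair come from the same libraries, so an overlap of ranges does not show that they are equal. Differences within libraries were not tested. In the Atf3 line E2f4 stayed on top at 24.7, E2f6, E2f5, E2f1 and E2f3 followed at 14, 13.2, 11.7 and 11.6 with each neighbouring pair overlapping, then came Rbl1 at 9.28, Rb1 at 7.49 and E2f8 at 7.31 (the last pair overlapping), E2f2 at 4.02 and E2f7 at 2.27. The Atf4 line had the same order, from E2f4 at 20.02 to E2f7 at 2.64, with E2f3 at 10.2 and Rbl1 at 9.94 overlapping as well. E2f1 thus went from the eighth place to the fourth, and Rb1 from the fourth to the seventh. The order leans on the length used: with each gene's longest transcript in place of merged exons, E2f6 stood at 17.5, 26.3 and 25.2 in control, Atf3 and Atf4 libraries, second in the first pair of lines and above E2f4 (24.6) in the Atf4 line.

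Summed per kb, the activators E2f1 to E2f3 came to 11.7 ± 0.574 in control, 27.3 ± 1.15 in Atf3 and 25.5 ± 1.97 in Atf4 libraries (SD, n = 5). The repressors E2f4 to E2f6 came to 35.6 ± 0.958, 52 ± 2.41 and 45.8 ± 1.5, and remained the larger sum in every library. The atypical E2f7 and E2f8 came to 4.14 ± 0.445, 9.58 ± 0.238 and 10.2 ± 0.626. The ratio of activators to repressors was 0.33 ± 0.0184 in control, 0.526 ± 0.0175 in Atf3 and 0.557 ± 0.0299 in Atf4 libraries, and every Atf3 and Atf4 library lay above every control library. The ratio of activators to atypical E2Fs was 2.85 ± 0.265, 2.85 ± 0.14 and 2.51 ± 0.103, with libraries between 2.57 and 3.24, 2.64 and 2.98, and 2.39 and 2.64 in the same order, so control libraries overlapped those of both other lines. The makeup of the activators also differed: E2f3 gave 65.2% ± 1.83 of the summed activator level in control libraries, 42.6% ± 1.98 in Atf3 and 40.05% ± 0.64 in Atf4 libraries, while E2f1 gave 25.4% ± 1.45, 42.7% ± 2.17 and 44.2% ± 1.24. Among the repressors the shares moved little, with E2f4 at 44% ± 0.576, 47.5% ± 1.21 and 43.7% ± 1.41. The ratio of Rbl1 to Rb1 was 0.377 ± 0.0413 in control, 1.25 ± 0.0921 in Atf3 and 1.31 ± 0.134 in Atf4 libraries, so Rb1 was the more abundant transcript of the pair in every control library and Rbl1 in every other. The ratio of E2f7 to E2f8 was 0.243 ± 0.0206, 0.311 ± 0.0217 and 0.35 ± 0.0186. These sums and ratios follow from the members and were not tested.

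**Figure D4:**
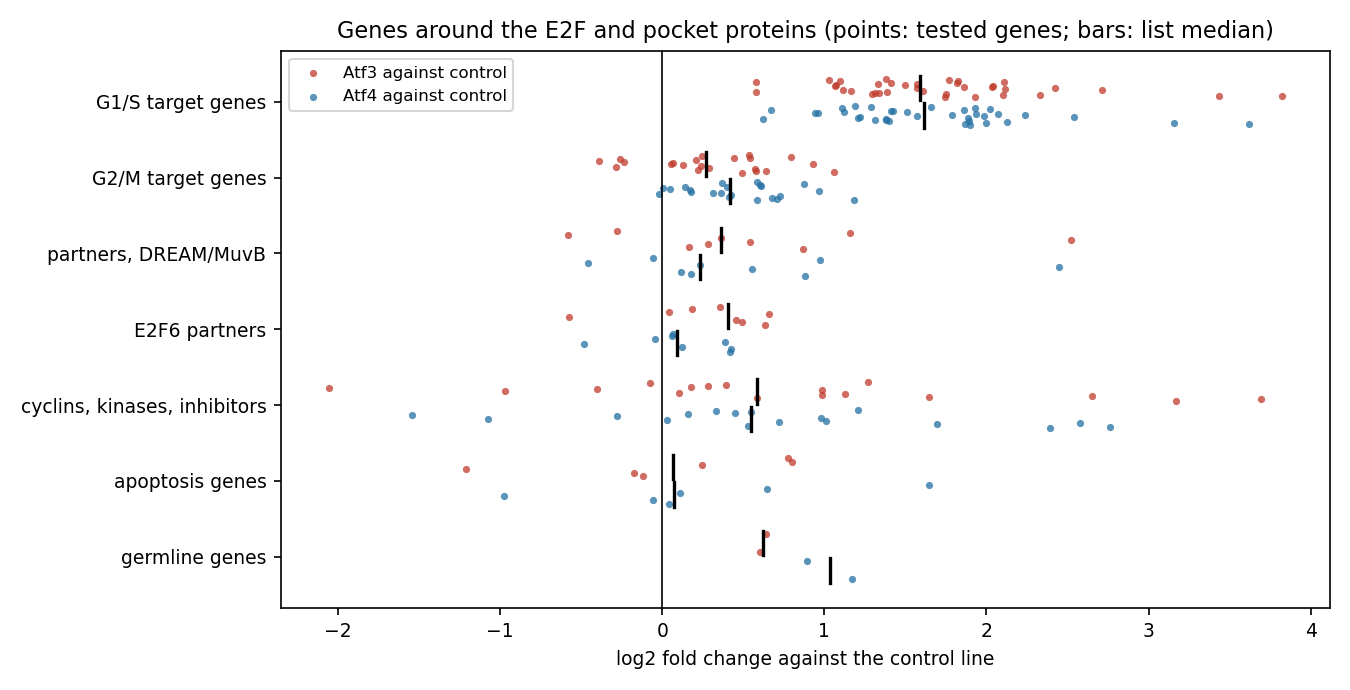
Log2 fold change against control of each tested gene in 7 lists around the E2F and pocket proteins, red for the Atf3 line and blue for the Atf4 line, with black bars for the list medians. All 36 genes of G1/S lie to the right of 0 in both lines, the genes of G2/M are centred nearer 0, and the cyclins, kinases and inhibitors spread from -2.06 to 3.69.

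Of the 9 tested partners of the E2Fs and subunits of the DREAM and MuvB complexes, 7 rose and 2 fell in the Atf3 line, and 6 rose, 1 fell and 2 were not called in the Atf4 line (1 further listed gene was not analysed here). Their medians were 0.36 and 0.23 on the log2 scale. Over all genes 36.8% rose and 36.3% fell in the Atf3 line, and 31.9% and 29.7% in the Atf4 line. Mybl2, the B-Myb subunit that joins MuvB when it activates, rose from 7.02 CPM to 40.4 in the Atf3 line (5.74-fold, log2 fold change 2.52 ± 0.09) and 38.4 in the Atf4 line (5.45-fold, 2.45 ± 0.09). Tfdp1, the dimerization partner of E2F1 to E2F6, rose from 79.8 CPM to 178 (2.23-fold) and 157 (1.97-fold). Its relative Tfdp2 fell from 44.9 to 37.1 CPM in the Atf3 line (log2 fold change -0.28 ± 0.04), was at 43.2 CPM in the Atf4 line, where it was not called against control, and was higher there than in the Atf3 line (0.22 ± 0.04). Rbl2, which encodes the third pocket protein p130 of resting cells, fell like Rb1, from 51.2 CPM to 34.2 in the Atf3 line (log2 fold change -0.58 ± 0.06) and 37.3 in the Atf4 line (-0.46 ± 0.05), and shares 21% of its exon bases with other genes. Rbbp4, a histone-binding subunit, and Tfdp1 were lower in the Atf4 than in the Atf3 line by 0.13 ± 0.03 and 0.18 ± 0.04 on the log2 scale. Both calls were lost with plain library totals (-0.03 for Rbbp4 and -0.08 for Tfdp1, edgeR adjusted p = 0.396 and 0.111), under which 2 genes of the list were higher and 0 lower in the Atf4 line, in place of 1 and 3. With TMM 19.7% of all genes were called higher and 23.9% lower in that comparison.

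E2F6 works within the Polycomb complex PRC1.6. Of its 8 listed partners, 6 rose, 1 fell and 1 was not called in the Atf3 line, against 4, 1 and 3 in the Atf4 line, with medians of 0.40 and 0.09. The shares of all genes that rose and fell were 36.8% and 36.3% in the Atf3 line and 31.9% and 29.7% in the Atf4 line. In the direct comparison 5 of the 8 were lower in the Atf4 line and none higher, with a median of -0.17 beside 0.00701 over all genes. There 23.9% of all genes were called lower and 19.7% higher. With plain library totals 2 partners fell in the Atf3 line. Max, the dimerization partner of MGA, went from 50 CPM in control to 68.5 in Atf3 and 54.5 in Atf4 libraries. Cbx3, a heterochromatin protein, went from 320 to 495 and 427 CPM, L3mbtl2, a chromatin reader of the complex, from 23.9 to 33.7 and 32.2, and Rybp, a subunit shared by several Polycomb complexes, from 52.4 to 67 and 54.8, where the value of Rybp in the Atf4 line was not called. Mga, the scaffold of the complex, was lower, at 80.5 CPM in control, 54 in Atf3 (log2 fold change -0.58 ± 0.12) and 57.7 in Atf4 libraries (-0.48 ± 0.12). Of the 5 listed germline genes that E2F6 is known to silence, only 2 passed the filter, and both were higher in each line than in control. Stag3, a meiotic cohesin subunit, went from 55 CPM to 85.6 (1.56-fold) and 102 (1.86-fold). Smc1b, another meiotic cohesin subunit, was at 0.209, 0.322 and 0.48 CPM, and in the Atf3 line the count of 2 fell to 1 in 18 of 24 other ways of processing the data.

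The kinases, cyclins and inhibitors that set the phosphorylation of pocket proteins had the widest range of fold changes of the lists. Of 17, 13 rose, 3 fell and 1 was not called in each of the Atf3 and Atf4 lines, with medians of 0.59 and 0.55. Ccnd2 and Ccnd1, the D-type cyclins that start RB1 phosphorylation, went from 28.3 to 366 and 192 CPM and from 107 to 960 and 560 CPM. In the direct comparison both were lower in the Atf4 line, by 0.93 ± 0.15 and 0.78 ± 0.17 on the log2 scale (edgeR adjusted p = 9.6e-05 and 0.0012). Ccne1 and Ccne2, the E-type cyclins that complete the phosphorylation and are themselves E2F targets, rose 3.13-fold and 6.29-fold in the Atf3 line and 3.24-fold and 5.98-fold in the Atf4 line. The kinase Cdk6 fell from 7.82 CPM to 3.99 and 3.71. Of the 7 listed inhibitors of cyclin-dependent kinases, 4 rose and 2 fell in the Atf3 line, and 5 rose and 2 fell in the Atf4 line. Beside these counts and those of the 17, 36.8% of all genes rose and 36.3% fell in the Atf3 line. In the Atf4 line 31.9% rose and 29.7% fell. Cdkn1a (p21), the most abundant of them by CPM, rose from 340 CPM to 673 (1.98-fold) and 671 (1.97-fold). Cdkn2c (p18) rose from 103 to 136 and 151 CPM, Cdkn2b (p15) from 5.95 to 7.25 and 8.11, and Cdkn2a from 51.9 to 58.8 and 57.8. Cdkn1c (p57) fell from 19.8 CPM to 4.76 and 6.78, and Cdkn1b (p27) from 184 to 139 and 152. Cdkn1a, Cdkn1b, Cdkn2a, Cdkn2b and Cdkn2c were added to the named genes after their values were seen. With plain library totals Cdkn2a was called in neither line (edgeR adjusted p = 0.55 and 0.0855), Cdkn2b was not called in the Atf3 line (0.0581), and Cdkn2d was called lower there (-0.21, 0.000152). The inhibitor Cdkn2d (p19) was at 79.2 CPM in control, 75.2 in Atf3 and 99.8 in Atf4 libraries, a rise of 0.33 ± 0.04 against control in the Atf4 line that did not pass in the Atf3 line (-0.08 ± 0.04). The direct comparison of Cdkn2d gave 0.41 ± 0.04 (edgeR adjusted p = 1.1e-06). Exon bases shared with other genes were 30.7% for Cdkn1c, 23.4% for Ccnd1, 17.4% for Ccne2 and 7.86% for Ccnd2.

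All 36 listed E2F target genes of G1/S rose in each line, with medians of 1.59 and 1.62 and ranges of 0.58 to 3.82 (Atf3) and 0.62 to 3.62 (Atf4). Every library of either line lay above every control library for each of the 36. Among all 18244 genes tested, 36.8% (Atf3) and 31.9% (Atf4) were called higher than control. Libraries lay wholly above control for 32% (Atf3) and 26.1% (Atf4) of them. Rrm2, a ribonucleotide reductase subunit, went from 39.1 CPM to 169 (4.31-fold) and 159 (4.07-fold). The replicative helicase subunits Mcm6 and Mcm5 went from 50.3 to 207 and 193 CPM and from 25.8 to 106 and 109 CPM. The licensing factor Cdt1 went from 2.86 to 30.9 and 25.5 CPM. Between the Atf4 and Atf3 lines 1 gene was higher, 4 were lower and 31 were not called, with a median of -0.005, beside 19.7% higher and 23.9% lower over all genes. Tyms, which makes thymidylate, was the one higher (0.26 ± 0.04), and Usp1, a deubiquitinase of DNA repair, and Cdt1 were among the lower (-0.19 ± 0.05 and -0.28 ± 0.10). With plain library totals the direction of the calls turned, to 12 genes higher and 0 lower, and Usp1 and Cdt1 were no longer called (-0.09 and -0.18, edgeR adjusted p = 0.169 and 0.143). The lower count was 10 without Atf4 replicate 5, 2 without Atf3 replicate 1 or 3, and 1 without Atf4 replicate 1, 2 or 3, and the higher count was 2 without control replicate 2 or 4, Atf3 replicate 4 or Atf4 replicate 1. The E2F words searched in the members were in the windows of 14 of the 30 G1/S genes that had one (46.7%).

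The later genes of G2/M, which are bound by MuvB with B-MYB or FOXM1, had smaller medians than those of G1/S. Of 22, 15 rose, 4 fell and 3 were not called in the Atf3 line (median 0.27). In the Atf4 line 18 rose, none fell and 4 were not called (median 0.42). Beside these, 36.8% of all genes rose and 36.3% fell in the Atf3 line, and 31.9% and 29.7% in the Atf4 line. Aurkb and Birc5, subunits of the chromosomal passenger complex, went from 33.5 to 70 and 76.1 CPM and from 42.3 to 66.1 and 69.2 CPM. Ccnb2, a mitotic cyclin, and Cenpe, a kinetochore motor, fell in the Atf3 line (-0.29 ± 0.06 and -0.24 ± 0.06 on the log2 scale) and were at -0.02 ± 0.06 and 0.05 ± 0.06 in the Atf4 line, where neither was called. In the direct comparison 12 of the 22 were higher in the Atf4 line and none lower, with a median of 0.12, and Ccnb2 and Cenpe gave 0.27 ± 0.06 and 0.29 ± 0.06 (edgeR adjusted p = 0.00088 and 0.00096). With plain library totals 20 of the 22 were higher. With TMM 19.7% of all genes were called higher and 23.9% lower in this comparison. The CHR word was in the windows of 11 of the 17 G2/M genes that had one (64.7%) and an E2F word in 1 of them. In edgeR all log2 fold changes were positive for G1/S against control (lowest 0.58 and 0.62) and for G2/M in the direct comparison (lowest 0.036). No p threshold could therefore give a lower call in these. For G2/M in the Atf4 line against control, 0 genes were lower also at an unadjusted p under 0.05 in edgeR. At that threshold 0 PRC1.6 partners were higher in the direct comparison. At an adjusted p under 0.05 all of these counts were 0 with DESeq2 and limma-voom as well, where unadjusted p-values were not counted.

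Of the apoptosis genes known as targets of E2F1, 3 are described here. Bcl2l11, which encodes the BH3-only protein BIM, fell from 80.3 CPM in control libraries to 34.7 in the Atf3 line (log2 fold change -1.21 ± 0.12) and 40.8 in the Atf4 line (-0.98 ± 0.12). Apaf1, the scaffold of the apoptosome, fell slightly in the Atf3 line, from 70.5 to 65 CPM (-0.12 ± 0.04), and was at 72.6 CPM in the Atf4 line. Trp73, which encodes the p53 relative p73, was scarce, at 0.155 CPM in control, 0.262 in Atf3 and 0.482 in Atf4 libraries. It was called higher than control in the Atf3 line (log2 fold change 0.78 ± 0.31) and in the Atf4 line (1.64 ± 0.28). It was also called higher in the Atf4 than in the Atf3 line (0.87 ± 0.26). Trp73 was not tested where genes needed 1 CPM in 5 libraries.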

How the data were processed

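The deposited table gives unnormalized whole-number counts for each gene in 15 libraries. The submitters' processing notes name STAR, edgeR and the build mm10. Versions, counting program and strand setting are not given in the sources. RNA was column-purified and libraries came from an unstranded NEBNext Ultra kit, read as pairs of 150 bases, per the labels' protocols. Symbols, coordinates and exon lengths are from GENCODE M21 on GRCm38, and 52135 of 55416 identifiers had a symbol. In R 4.3.3, edgeR 4.0.16 scaled libraries by TMM, filterByExpr kept 18244 genes, and all 15 libraries were fitted with 1 coefficient per line. Benjamini-Hochberg adjustment ran over all genes tested. SE is the log2 fold change over the root of F. DESeq2 1.42.0, limma 3.58.1 (voom), RLE scaling, plain totals, other filters, a replicate block and libraries left out were alternatives. The fit was tested on simulated data. Within each line replicates varied beyond sampling noise (chi-square per degree of freedom 5.47 to 53.4).

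All 10 members are named. From each other list up to 2 called genes per direction and comparison with the smallest adjusted p are named, and for E2f1, E2f8 and Rb1 the 3 nearest profiles among genes of at least 1 CPM. The members and lists were chosen with earlier results of these data known. Some genes of the apoptosis list are not reported here.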

Additional observations from a re-analysis of the deposited data

Results flagged for a closer look

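Of 30 groups of 5 libraries (10 genes in 3 lines), 2 held a library far from the rest, where chance flags about 1 in 20 (1.5 of 30). E2f4 in Atf4 replicate 5 was at 54.2 CPM, with the other Atf4 libraries at 47.4 to 48.7. E2f5 in Atf4 replicate 2 was at 23.5 CPM, with the others at 21.2 to 21.8. The E2f4 calls stood without replicate 5, at log2 fold changes of 0.30 against control and -0.34 against the Atf3 line, and the E2f5 value against the Atf3 line passed the test without replicate 2 (-0.12, edgeR adjusted p = 0.0271).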

How the results depend on the processing

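Against control, all 20 calls on the 10 genes kept their direction and their side of the threshold under each of 24 alternatives per comparison. The alternatives were DESeq2, limma-voom, RLE scaling, plain totals, 2 other filters, a replicate block, only the 2 lines compared, each library left out, and control replicates 4 and 5 left out together. In the direct comparison of the Atf4 and Atf3 lines, plain library totals gave 6196 genes higher and 2369 lower in place of 3595 and 4363, and 3 members higher and 1 lower in place of 1 and 2. With them E2f1 stood at 0.052, E2f5 at 5e-04 and E2f6 at 0.038 on the log2 scale. Leaving out 1 library put the members called higher at 0 to 1. E2f2, at 1e-04 between these lines, changed sign with limma-voom (-0.013), with no filter (-0.0084) and with libraries left out (-0.059 to 0.05). Rb1 changed sign only without Atf3 replicate 1, with a range of -0.018 to 0.054 over the libraries left out. The cause was not tested. With the longest transcript as length, the ratio of activators to repressors was 0.268 in control, 0.428 in Atf3 and 0.449 in Atf4 libraries. In the lists around the members 62 of 1008 counts moved by more than 1.5 times.

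Replicate numbers are shared by the lines but nothing says what they pair. Same-numbered libraries deviated together with correlations of -0.079 to 0.098, none of the 5 pairs over 0.1 in any comparison, and 1 of 5 fitted best with its own number in each. With the replicate block, 13132, 10968 and 7589 genes were called in place of 13351, 11246 and 7958, E2f2 stood at -0.0063 in the direct comparison, and no other sign or call among the 10 genes changed. At 53.7 to 69.6 M counts per library, the lowest count of any member was 237 (E2f2), so depth limits Smc1b and Trp73 more than the members.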
